A study of Mus musculus with 4 samples.

Results

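The cornified envelope genes described here are the members of the Sprr and Lce families together with loricrin (Lor), involucrin (Ivl) and 5 filaggrin-like genes (Flg2, Hrnr, Rptn, Crnn and Tchhl1). They were chosen by symbol alone, as all genes whose symbol starts with Sprr or Lce plus the 7 named genes. In GENCODE vM21, 45 genes met this rule, and 43 of them were among the 39179 genes of the count tables. These were 16 Sprr, 20 Lce and 5 filaggrin-like genes, loricrin and involucrin. Lce1d and Sprr2c-ps were not analysed here. A filter on low counts kept 41 of the 43 for testing, and Sprr3 and Sprr2a2 did not pass it.

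The study compared lesional skin of Itch-/- mice (Itch KO, 2 libraries) with skin of wild-type mice (WT, 2 libraries), all labelled as C57BL/6. Itch, a Nedd4-type ubiquitin ligase, is known in mice for inflamed, itching skin when it is lost. Every sample carries the phenotype label inflammation, the WT samples too. The labels used here hold no age or sex and no animal number. Where the 2 libraries of a group are not separate animals, p-values reflect only the spread between them, which may be technical.

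The cornified envelope is the protein shell that a keratinocyte of the outer epidermis builds under its membrane as it dies. Transglutaminases cross-link the shell from loricrin, involucrin, small proline-rich proteins (Sprr) and late cornified envelope proteins (Lce), while filaggrin-like proteins bind keratin bundles and the envelope. In mouse and human the genes lie side by side in the epidermal differentiation complex. Sprr1 and Sprr2 genes are known to be induced in injured or inflamed epidermis, and LCE3 genes are known in human skin for induction after barrier damage, whereas LCE1 genes belong to normal late differentiation. Here all members lay on chromosome 3 (GRCm38), between position 92080271 at Lor and 93471980 at Tchhl1, in the order Lor, Sprr2, Sprr1 with Sprr3 and Sprr4, Ivl, Lce and the filaggrin-like genes, with Lce1m standing apart from the other Lce1 genes beyond the Lce3 cluster.

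The Itch KO libraries held 16008351 and 15881860 gene reads and the WT libraries 15407932 and 15144957. Itch itself stood at 11.7 and 11.7 CPM (counts scaled to library size) in Itch KO skin, against 96.7 and 103 CPM in WT skin. The Pearson correlation across genes was 0.983 between the Itch KO libraries and 0.923 between the WT libraries. Replicate 1 of WT (WT 1) stood apart. Skeletal muscle genes summed to 1494 and 1296 CPM in Itch KO skin, against 18720 CPM in WT 1 and 3067 CPM in WT 2. Hair shaft genes summed to 3701 and 3925 CPM in Itch KO skin, against 20.4 CPM in WT 1 and 3219 CPM in WT 2, and the highest single hair shaft gene of WT 1 reached 13.7 CPM. Xist, the RNA that coats an inactive X, had 0.947 and 0.892 CPM in Itch KO skin, against 1055 and 631 CPM in WT skin, so genotype and sex cannot be told apart. Junction genes of epithelia were abundant in every library, at 5932 and 6376 CPM in Itch KO skin and 8336 and 7417 CPM in WT skin. In bulk skin, fewer cells of a type and less RNA per cell cannot be told apart.

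The levels ran in different directions in different families. All 11 tested Sprr2 genes and all 6 Lce3 genes had both Itch KO libraries above both WT libraries. So did the untested Sprr2a2, by few reads (5 and 11 in Itch KO skin, 0 and 4 in WT skin). No Lce1 gene did, and 6 of 13 Lce1 genes, Lor, Ivl and Flg2 had both Itch KO libraries below both WT libraries. Of all tested genes, 31.2% had both Itch KO libraries above both WT libraries and 30% had both below. The median log2 fold change (Itch KO over WT) was 4.98 for the 11 tested Sprr2 genes, 3.07 for Lce3, 0.43 for the filaggrin-like genes and -0.22 for Lce1, against 0.01 over all 16651 tested genes.

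None of these differences passed the threshold for single genes. With edgeR's quasi-likelihood test, 0 of 41 members had an adjusted p under 0.05, where 0.00601% of all tested genes did. An unadjusted p under 0.05 was reached by 12 members in the higher direction and by 5 in the lower, where the background was 12% of all tested genes higher and 10.9% lower. Both Itch KO libraries lay above both WT libraries in 19 of 41 tested members, against 31.2% of all tested genes, and below them in 9 of 41, against 30%. DESeq2 called 12 members higher and 4 lower at an adjusted p under 0.05, where it called 7.83% of all tested genes higher and 6.16% lower. With limma-voom, 0 members passed. The low-count filter asked for 0.639 CPM in at least 2 libraries. For 13 of the 41 tested members (7 Sprr2 genes, 5 Lce3 genes and Crnn) at most 1 WT library reached that level, so they entered the test through Itch KO counts, and the counts and medians that include them are descriptions. Of the other 28 members, an unadjusted p under 0.05 was reached by 3 that were higher and 5 that were lower in Itch KO skin, against 12% and 10.9% of all tested genes. Both Itch KO libraries lay above both WT libraries in 7 of the 28, against 31.2%. By either count, higher members were no more frequent among these 28 than among all tested genes. The comparison is not like for like, since all tested genes include some that entered through Itch KO counts. No share was computed over genes with both WT libraries over the filter. The plot of levels by library shows each member in genomic order.

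**Figure D1:**
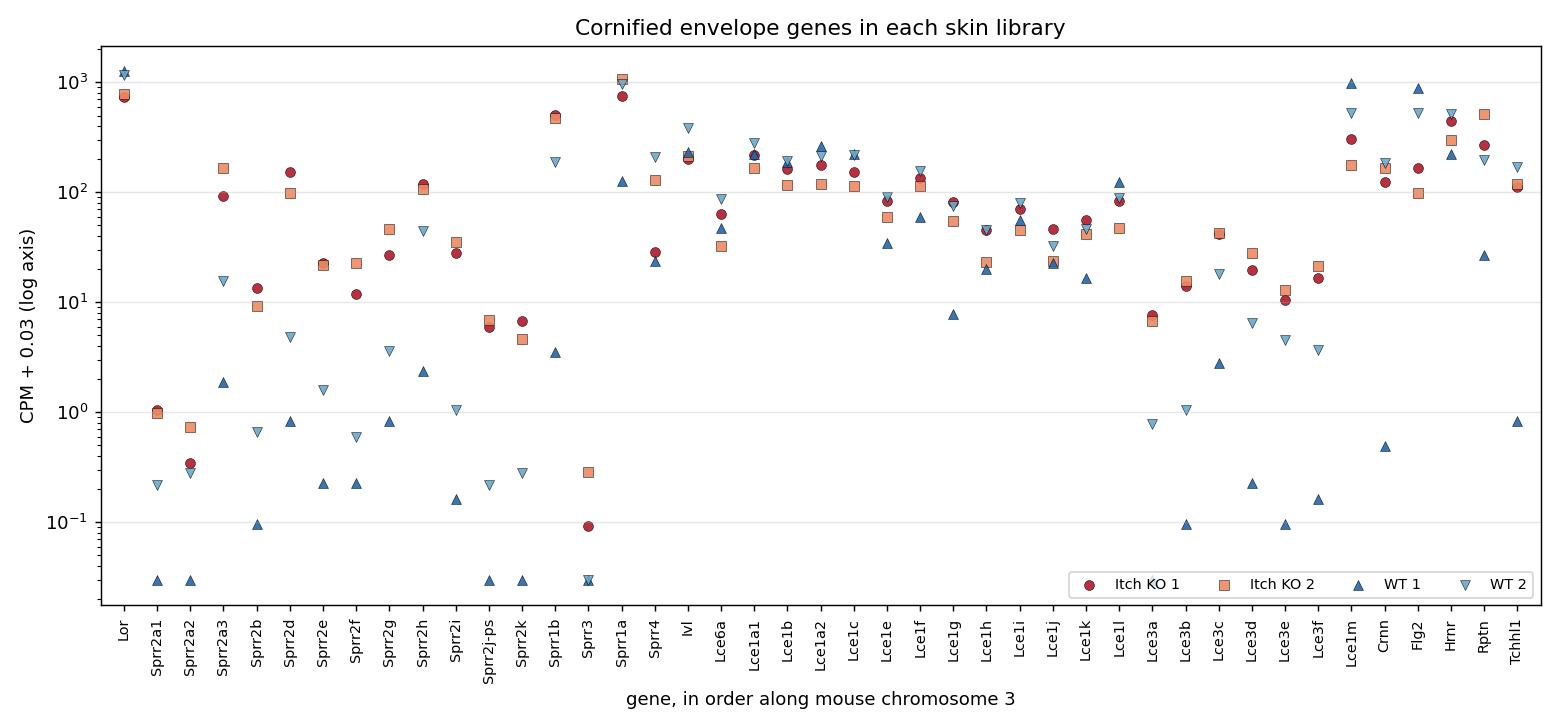
Level of each of the 43 genes in each library, as CPM plus 0.03 on a log axis, with genes in order along chromosome 3. In the Sprr2 and Lce3 clusters the red and orange Itch KO points lie above both WT points, and WT 1 (dark blue) is the lowest of the 4 libraries in 31 of 43 genes.

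The Sprr2 genes encode short proline-rich proteins of the envelope. By their codons in GENCODE vM21, a median of 39.5% of their residues is proline, 17.1% cysteine and 13.2% glutamine over 11 genes. The copies are alike enough to matter for counting, and the first 90 coding bases are shown for Sprr2d and for 4 other named or closely related copies, with capitals where a base differs from Sprr2d.
Sprr2d: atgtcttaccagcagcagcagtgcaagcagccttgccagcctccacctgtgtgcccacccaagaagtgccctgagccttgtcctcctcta
Sprr2i: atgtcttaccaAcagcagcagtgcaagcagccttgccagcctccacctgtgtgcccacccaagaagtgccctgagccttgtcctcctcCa
Sprr2e: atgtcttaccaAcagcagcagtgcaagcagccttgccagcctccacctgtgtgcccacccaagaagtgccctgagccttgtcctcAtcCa
Sprr2h: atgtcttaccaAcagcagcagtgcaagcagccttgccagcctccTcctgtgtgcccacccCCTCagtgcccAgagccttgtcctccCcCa
Sprr2a3: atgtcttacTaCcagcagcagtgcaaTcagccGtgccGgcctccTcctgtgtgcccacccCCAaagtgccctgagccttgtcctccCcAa
Sprr2i differed from Sprr2d at 2 of these bases, Sprr2e at 3, Sprr2h at 9 and Sprr2a3 at 11.

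The shared stretches bear on how a read is assigned. Of the 50-base words in a gene's transcript, a median of 7.2% over the 12 Sprr2 genes also occurred in a transcript of another gene. That share was 100% for Sprr2a2, 96.3% for Sprr2a1 and 61.1% for Sprr2a3, so the split among these 3 copies is uncertain. It was 12.5% for Sprr2i, 4.3% for Sprr2d, 0.7% for Sprr2f and 0 for Sprr2g and Sprr2h, whose counts rest on sequence of their own. The counter for multiply aligned reads was 0 in every library, and whether such reads were dropped or counted is not given in the sources used here.

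Sprr2d, at chr3:92339140-92340873 on the plus strand, had 154 and 99.7 CPM in Itch KO skin, against 0.800 and 4.80 CPM in WT skin. The lower Itch KO value was 20.8 times the higher WT value. The log2 fold change was 5.49 (SE 0.93, edgeR adjusted p = 0.0906).

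Sprr2i, next to it in sequence, had 28.3 and 35.6 CPM in Itch KO skin, against 0.133 and 1.01 CPM in WT skin, a log2 fold change of 5.77 (SE 0.85, edgeR adjusted p = 0.0766). Sprr2f had the smallest p of any member, with 11.9 and 22.9 CPM in Itch KO skin and 0.200 and 0.568 CPM in WT skin, a log2 fold change of 5.46 (SE 0.68, edgeR adjusted p = 0.0675). Both genes passed the low-count filter through the Itch KO libraries, and the WT values of Sprr2f rest on 3 and 9 reads. The lower Itch KO value was 28 times the higher WT value for Sprr2i and 21 times for Sprr2f.

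Sprr2a3 had 92.5 and 166 CPM in Itch KO skin, against 1.87 and 15.7 CPM in WT skin. Sprr2g, annotated as a polymorphic pseudogene, had 26.9 and 46.7 CPM in Itch KO skin, against 0.800 and 3.60 CPM in WT skin. Their log2 fold changes were 3.88 (SE 1.09) and 4.06 (SE 0.81). Neither gene's groups overlapped, and in both the WT libraries lay apart by several fold, WT 2 the higher.

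Sprr2h, at chr3:92385685-92387324, was the exception in size. It had 119 and 107 CPM in Itch KO skin, against 2.33 CPM in WT 1 and 44.9 CPM in WT 2. The lower Itch KO value was 2.38 times that of WT 2, where the median of this ratio over the tested Sprr2 genes was 14.5. Its log2 fold change was 2.26 (SE 1.31, edgeR adjusted p = 0.360). Among the Sprr2 genes it was also the only tested one with an unadjusted p above 0.05.

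The low-level Sprr2 genes are given by their reads. Sprr2j-ps had 95 and 108 reads in Itch KO skin and 0 and 3 in WT skin. Sprr2k had 107 and 72 reads in Itch KO skin, against 0 and 4 in WT skin. Sprr2a1 had 16 and 15 reads in Itch KO skin, against 0 and 3 in WT skin. WT 1 had no read of any of these 3 genes, nor of the untested Sprr2a2, which had 5 and 11 reads in Itch KO skin, against 0 and 4 in WT skin. A floor of 3 reads in a library corresponds to 0.189 and 0.191 CPM in the Itch KO libraries, against 0.200 CPM in WT 1 and 0.189 CPM in WT 2, and covers counting error only. Of the remaining copies, Sprr2b had 13.6 and 9.18 CPM in Itch KO skin, against 0.0667 and 0.631 CPM in WT skin. Sprr2e had 22.8 and 21.9 CPM in Itch KO skin, against 0.200 and 1.58 CPM in WT skin, and neither gene's groups overlapped.

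The 7 Sprr2 genes that entered the test through their Itch KO counts were Sprr2a1, Sprr2b, Sprr2e, Sprr2f, Sprr2i, Sprr2j-ps and Sprr2k, and a difference in them was close to a condition of being tested. Of the other 4 (Sprr2a3, Sprr2d, Sprr2g and Sprr2h), 3 had an edgeR unadjusted p under 0.05 in the higher direction, against 12% of all tested genes. The log2 fold changes of the 4 lay between 2.26 and 5.49. Summed to 1 feature, which removes the question of which copy a read belongs to, the Sprr2 genes had 7648 and 8199 reads in Itch KO skin, against 96 and 1166 in WT skin. The summed log2 fold change was 3.65 (SE 1.22, edgeR adjusted p = 0.196), below the median of the single genes, and Sprr2h and Sprr2a3 supplied most of the WT reads.

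The Sprr1 genes, whose products are longer cross-bridging proteins with a median of 31.3% proline codons, had no 50-base word in common with another gene. Sprr1b, at chr3:92436809-92438789 on the minus strand, had 510 and 473 CPM in Itch KO skin, against 3.53 CPM in WT 1 and 189 CPM in WT 2. Its groups did not overlap, yet the gap between the WT libraries was wider than that between Itch KO and WT 2, and the log2 fold change of 2.35 had an SE of 1.68 (edgeR adjusted p = 0.438). Sprr1a had 754 and 1080 CPM in Itch KO skin, against 127 CPM in WT 1 and 958 CPM in WT 2, so the groups overlapped (log2 fold change 0.76, SE 0.97). Without WT 1 the Sprr1a value was -0.07.

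Sprr4, a proline-rich gene with 25.0% glutamine codons, had 28.5 and 130 CPM in Itch KO skin, against 23.8 and 208 CPM in WT skin. Each group held 1 low and 1 high library, and the log2 fold change of -0.55 (SE 1.24) changed sign to 1.74 without WT 2 and to 0.14 without Itch KO 1. Sprr3, a gene known from the linings of mouth and oesophagus, had 1 and 4 reads in Itch KO skin and 0 and 0 in WT skin, at or near the floor of 3 reads in every library. No fold change is given for it.

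The Lce3 genes encode short proteins rich in cysteine and serine, all with a coding length of 294 bases. Of the 50-base words of an Lce3 transcript, a median of 39.7% occurred in another gene, between 12.1% and 49.3%, so values of single Lce3 genes are less certain than their sum.

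Lce3c, at chr3:92944486-92945733 on the plus strand, had the highest mean level of the 6, with 42.1 and 42.9 CPM in Itch KO skin, against 2.80 and 18.2 CPM in WT skin. Its log2 fold change was 2.01 (SE 0.90, edgeR adjusted p = 0.273). Lce3b, which shared the smallest part of its sequence, had 14.2 and 15.5 CPM in Itch KO skin, against 0.0667 and 1.01 CPM in WT skin, a log2 fold change of 4.75 (SE 1.01, edgeR adjusted p = 0.116). The lower Itch KO value of Lce3b was 14.1 times the WT 2 value, the widest gap of any Lce gene.

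Lce3d had 19.5 and 28.0 CPM in Itch KO skin, against 0.200 and 6.44 CPM in WT skin. Lce3f had 16.6 and 21.4 CPM in Itch KO skin, against 0.133 and 3.66 CPM in WT skin. Lce3a and Lce3e ranged between 6.75 and 13.0 CPM in Itch KO skin and between 0 and 4.48 CPM in WT skin. In all 6 genes WT 1 was the lowest library and WT 2 lay between WT 1 and the Itch KO libraries, with the lower Itch KO value 2.31 to 14.1 times that of WT 2.

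At an unadjusted p under 0.05, 2 of 6 Lce3 genes (Lce3a and Lce3b) were higher in Itch KO skin, against 12% of all tested genes. Both were among the 5 that entered the test through their Itch KO counts, and Lce3c, the only one with both WT libraries over the filter, did not reach that level. Summed, the Lce3 genes had 1750 and 2003 reads in Itch KO skin, against 49 and 548 in WT skin, a log2 fold change of 2.65 (SE 1.11, edgeR adjusted p = 0.253). Without WT 1, 5 of 6 Lce3 genes and 9 of 11 Sprr2 genes passed an edgeR adjusted p of 0.05 in the higher direction, against 5.52% of all genes tested in that fit. Without WT 2, 6 of 6 and 11 of 11 passed, against 15.3% of all genes tested. In both fits the remaining WT library was assumed to vary as the Itch KO libraries do. With all libraries in the fit, 5 of 6 Lce3 and 7 of 11 Sprr2 genes entered the test through their Itch KO counts. Setting their pass counts against those shares of all genes is thus not like for like. The pass counts of these 2 fits cannot be read as results about the members. Without either Itch KO library 0 members passed, and so did 0% of all genes tested, so that 0 says nothing about the members.

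The Lce1 genes, which in human belong to the late granular layer of normal epidermis, had medians of 21.4% cysteine, 20.4% glycine and 24.5% serine codons. A median of 19.9% of their 50-base words and 1.3% of their 100-base words occurred in another gene. Lce1m alone of the 13 shared no 50-base word, and its coding start differed from that of Lce1a1 at 35 of 90 bases.
Lce1m: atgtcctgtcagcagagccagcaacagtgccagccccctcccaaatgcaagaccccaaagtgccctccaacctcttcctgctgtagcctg
Lce1a1: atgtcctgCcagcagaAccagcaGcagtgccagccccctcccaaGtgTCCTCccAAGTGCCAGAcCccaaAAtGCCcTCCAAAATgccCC
Capitals mark the bases of Lce1a1 that differ from Lce1m at the same position, with no gap allowed.

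Lce1m, at chr3:93017810-93019060 on the minus strand, had 307 and 178 CPM in Itch KO skin, against 997 and 526 CPM in WT skin. The groups did not overlap, and the log2 fold change was -1.65 (SE 0.45, edgeR adjusted p = 0.155), the largest difference of the 13 Lce1 genes. Lce1m made up 19% and 16.1% of the summed Lce1 CPM in Itch KO skin, against 44.6% in WT 1 and 25.7% in WT 2.

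Lce1c had 153 and 115 CPM in Itch KO skin, against 221 and 217 CPM in WT skin (log2 fold change -0.71, SE 0.20). Lce1a2 had 176 and 120 CPM in Itch KO skin, against 262 and 214 CPM in WT skin (log2 fold change -0.69, SE 0.25). Lce1a1 had 217 and 166 CPM in Itch KO skin, against 225 and 283 CPM in WT skin, with the higher Itch KO library close to WT 1. Both Itch KO libraries were below both WT libraries in each of these 3 genes and in Lce1b and Lce1l.

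The other 7 Lce1 genes (Lce1e to Lce1k) overlapped between the groups, with log2 fold changes between -0.22 and 0.71. At an unadjusted p under 0.05, 3 of 13 Lce1 genes were lower in Itch KO skin, against 10.9% of all tested genes, and 0 were higher, against 12%. The Itch KO libraries themselves differed in one direction in this family, since Itch KO 1 lay above Itch KO 2 in 13 of 13 Lce1 genes, by a median factor of 1.47 and between 1.18 and 1.96. In the Lce3 genes the same held for 1 of 6. Summed, the Lce1 genes had 25576 and 17374 reads in Itch KO skin, against 33530 and 32439 in WT skin, a log2 fold change of -0.65 (SE 0.26, edgeR adjusted p = 0.236).

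Lce6a, the single member of its subfamily, had 64.1 and 32.7 CPM in Itch KO skin, against 47.1 and 86.4 CPM in WT skin. Its groups overlapped (log2 fold change -0.46, SE 0.46), and the value was 0.04 without WT 2.

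Loricrin is the most abundant glycine- and serine-rich protein of the normal envelope, and 55.3% of its codons here encode glycine. Lor had 741 and 781 CPM in Itch KO skin, against 1260 and 1160 CPM in WT skin. The libraries of each group lay close together and the groups did not overlap. The log2 fold change was -0.67 (SE 0.18, edgeR adjusted p = 0.150), the smallest SE of any member, and DESeq2 gave an adjusted p of 0.00304.

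Involucrin is an early glutamine-rich scaffold protein to which later envelope proteins are attached. Ivl had 202 and 215 CPM in Itch KO skin, against 235 and 381 CPM in WT skin. The groups did not overlap, although Itch KO 2 and WT 1 differed by little, and the log2 fold change was -0.56 (SE 0.28, edgeR adjusted p = 0.298).

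Scaling bears on the lower values. The epithelial junction genes are not a fixed reference. Of the 7, 4 had both Itch KO libraries below both WT libraries, against 30% of all tested genes. The largest differences were those of Dsc3 (log2 fold change -0.85) and Dsp (-0.59), while Jup, Pkp3 and Dsg3 overlapped between the groups. With libraries scaled to the epithelial junction genes, whose sum was smaller in Itch KO skin, the median of all tested genes moved to 0.36, and members with both Itch KO libraries below both WT libraries numbered 4 in place of 9. The Lce1 median was then 0.13, below that of all genes. The Lor, Ivl, Lce1m, Lce1c and Flg2 values stayed negative, at -0.31, -0.23, -1.26, -0.35 and -2.02.

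The filaggrin-like genes encode large proteins in which a calcium-binding S100 domain is joined to long repeats. Flg2, a filaggrin relative of the granular layer, at chr3:93197278-93221391 on the plus strand, had 167 and 99.7 CPM in Itch KO skin, against 884 and 527 CPM in WT skin. The groups did not overlap, and the means were 133 ± 47.5 CPM in Itch KO skin and 706 ± 253 CPM in WT skin (SD, n = 2 each). The log2 fold change was -2.40 (SE 0.41, edgeR adjusted p = 0.0872), the lowest of the 41 tested members.

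Hrnr (hornerin), a neighbour of the same type, had 444 and 299 CPM in Itch KO skin, against 225 and 514 CPM in WT skin. The Itch KO values lay between the 2 WT values, and the log2 fold change was 0.01 (SE 0.47). The ratio of Flg2 to Hrnr CPM within a library, which does not depend on library scaling, was 0.376 and 0.333 in Itch KO skin, against 3.93 in WT 1 and 1.02 in WT 2.

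Rptn (repetin), an envelope protein of the same group, had 272 and 517 CPM in Itch KO skin, against 27.0 and 197 CPM in WT skin. It was the only filaggrin-like gene with both Itch KO libraries above both WT libraries, by a factor of 1.38 from the lower Itch KO value to WT 2, and its log2 fold change was 1.82 (SE 1.01, edgeR adjusted p = 0.345).

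Crnn (cornulin) had 123 and 165 CPM in Itch KO skin, against 0.467 CPM in WT 1 and 184 CPM in WT 2. Tchhl1 (trichohyalin-like 1) had 111 and 120 CPM in Itch KO skin, against 0.800 CPM in WT 1 and 171 CPM in WT 2. In both genes WT 1 was near 0 and WT 2 was the highest of the 4 libraries, so the groups overlapped. Their fold changes turned on WT 1. The log2 values of Crnn and Tchhl1 were 0.64 (SE 2.01) and 0.43 (SE 1.90) over all libraries, and -0.36 and -0.57 without WT 1. The hair shaft genes had the same low level in WT 1, 20.4 CPM in sum, and the part of hair shaft RNA in these results was not tested.

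The plot of ratios to each WT library sets out how far the choice of WT library matters. Against WT 2 alone, the median log2 ratio of the Itch KO mean was 3.97 for Sprr2, 2.11 for Lce3, 0.66 for Sprr1, -0.44 for Lce1 and -0.47 for the filaggrin-like genes, on a scale of CPM plus 0.1. Against WT 1 alone it was 6.03 for Sprr2, 6.25 for Lce3, 4.97 for Sprr1, 0.06 for Lce1 and 3.86 for the filaggrin-like genes. The Itch KO mean lay above WT 2 in 11 of 11 tested Sprr2 genes and 6 of 6 Lce3 genes, in 2 of 13 Lce1 genes and in 1 of 5 filaggrin-like genes. It lay above WT 1 in 11 of 11 Sprr2 genes and 6 of 6 Lce3 genes, in 7 of 13 Lce1 genes and in 4 of 5 filaggrin-like genes. The sign of the median for Sprr2, Lce3 and Sprr1 was the same against either WT library, and that for Lce1 and the filaggrin-like genes was not.

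**Figure D2:**
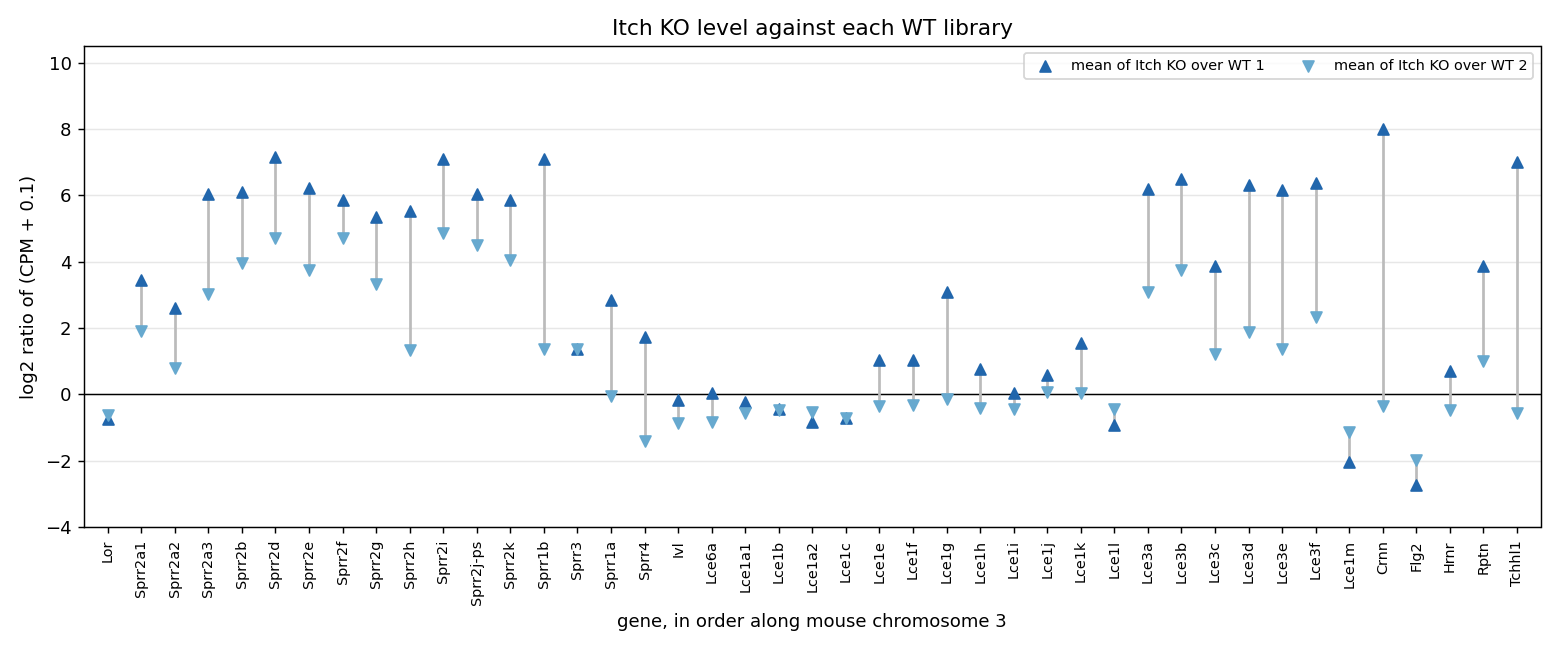
Log2 ratio of the mean Itch KO level to WT 1 (dark upward triangles) and to WT 2 (light downward triangles), each as CPM plus 0.1, with genes in order along chromosome 3 and a grey line joining the 2 ratios of a gene. Sprr2 and Lce3 genes lie above 0 against both WT libraries, Lor, Flg2 and Lce1m lie below 0 against both, and Crnn and Tchhl1 lie at 7.99 and 7.01 against WT 1 but at -0.35 and -0.57 against WT 2.

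The make-up of the envelope transcripts within a library differed as well. The members together took a similar part of the gene reads, 0.556% and 0.56% in Itch KO skin and 0.495% and 0.704% in WT skin. Within that pool, Sprr1 genes held 22.47% and 27.4% in Itch KO skin, against 2.57% in WT 1 and 17.04% in WT 2. Sprr2 genes held 8.59% and 9.21% in Itch KO skin, against 0.13% and 1.09% in WT skin. The shares of a library add up to 100%, so a higher share of one family lowers those of the others. Lce3 genes held 1.96% and 2.25% in Itch KO skin, against 0.06% and 0.51% in WT skin. The shares of the Lce1 genes were 28.71% and 19.51% in Itch KO skin, against 44.01% and 30.41% in WT skin, and those of Lor were 13.17% and 13.78% in Itch KO skin, against 24.81% and 17.23% in WT skin.

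Ratios between families showed the same contrast without use of library size. Sprr2 over Lce1 was 0.299 and 0.472 in Itch KO skin, against 0.00286 and 0.0359 in WT skin. Sprr over Lor was 2.40 and 2.82 in Itch KO skin, against 0.127 and 1.24 in WT skin. Lce3 genes made up 6.17% and 10.1% of the Lce CPM in Itch KO skin, against 0.143% and 1.60% in WT skin. In each of these ratios both Itch KO libraries lay above both WT libraries, while Lce1 over Lor did not separate the groups, at 2.18 and 1.42 in Itch KO skin and 1.77 and 1.77 in WT skin.

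**Figure D3:**
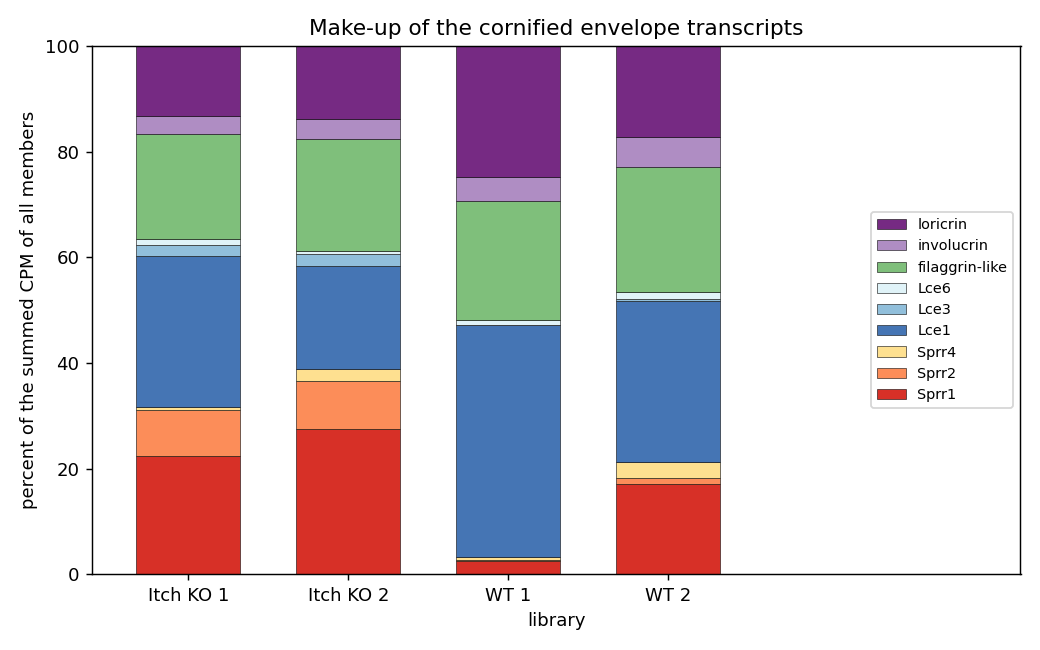
Percent of the summed CPM of all members held by each family, with 1 stacked bar for each library. The Sprr2 segment reaches 8.59% and 9.21% in the Itch KO bars and 0.13% and 1.09% in the WT bars, and the loricrin and Lce1 segments are widest in WT 1.

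Per length, in CPM per kb of exon, the order of the members also differed. Sprr1a ranked first in Itch KO 1, Itch KO 2 and WT 2 and in place 8 in WT 1. Sprr1b ranked in place 2 in both Itch KO libraries, against 23 in WT 1 and 9 in WT 2. Sprr2d ranked 8 and 11 in the Itch KO libraries, against 26 and 29 in WT 1 and WT 2. Lce1m ran the other way, in places 4 and 6 in the Itch KO libraries and 1 and 4 in WT 1 and WT 2. Flg2 levels per length depend on which exons are counted, since the union of its annotated exons spans 20803 bases and its coding transcript 7011, and by the coding transcript it had 23.8 and 14.2 CPM per kb in Itch KO skin, against 126 and 75.2 in WT skin.

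Promoters were compared because members of the Sprr2 and Lce3 families shared a direction. RefSeq (GRCm38.p6) gave a promoter for 40 of the members, and 250 bases before the start were searched on both strands. In 34 of the 40, the 30 bases after the RefSeq start lay in a GENCODE transcript of the same gene. Words are placed relative to the RefSeq start, and in the other 6 that start was not matched in this way. The windows of Sprr2d and Sprr2i are shown to 200 bases before the start and those of Lor, Lce3c, Lce3b and Lce1c to 120 bases. Capitals mark matches to TGANTCA (the AP-1 site with any middle base), TATAAA (the TATA box), ATTTGCAT (the octamer) and ATAAAAG.
Sprr2d, chr3:92338940-92339139, plus strand: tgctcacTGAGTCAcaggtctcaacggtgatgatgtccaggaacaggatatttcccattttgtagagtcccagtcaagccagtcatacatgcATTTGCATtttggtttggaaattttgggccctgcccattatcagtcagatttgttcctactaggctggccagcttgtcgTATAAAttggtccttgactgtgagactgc
Sprr2i, chr3:92407791-92407990, plus strand: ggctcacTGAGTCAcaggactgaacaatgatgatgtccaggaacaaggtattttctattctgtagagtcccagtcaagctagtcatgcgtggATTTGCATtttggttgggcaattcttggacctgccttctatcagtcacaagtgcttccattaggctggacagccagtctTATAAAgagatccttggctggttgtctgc
Lor, chr3:92083143-92083262, minus strand: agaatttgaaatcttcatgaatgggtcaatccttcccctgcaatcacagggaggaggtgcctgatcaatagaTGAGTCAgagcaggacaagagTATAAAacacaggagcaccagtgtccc
Lce3c, chr3:92944366-92944485, plus strand: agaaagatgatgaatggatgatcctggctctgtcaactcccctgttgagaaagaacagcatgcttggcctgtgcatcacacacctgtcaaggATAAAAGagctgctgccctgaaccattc
Lce3b, chr3:92932859-92932978, plus strand: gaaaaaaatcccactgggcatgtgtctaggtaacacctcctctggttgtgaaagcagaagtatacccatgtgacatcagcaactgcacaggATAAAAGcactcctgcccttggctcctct
Lce1c, chr3:92679127-92679246, plus strand: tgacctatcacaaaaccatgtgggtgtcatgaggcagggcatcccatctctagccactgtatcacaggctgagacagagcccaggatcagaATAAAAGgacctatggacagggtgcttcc
In Sprr2d the AP-1 match lay 193 to 187 bases before the start, the octamer 108 to 101 and the TATA box 29 to 24, and Sprr2i had the 3 matches at the same distances.

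The families did not hold the same words. The windows of Sprr2a1 and Sprr2a2 were identical in sequence, and the 3 Sprr2 promoters without a match to the AP-1 site, the TATA box or the octamer were those of Sprr2a1, Sprr2a2 and Sprr2a3. For these 3 the RefSeq and GENCODE starts differed. Their windows ended at 92215834, 92250646 and 92285303, and their GENCODE starts were 92215799, 92215920 and 92285417. Whether another start of these genes has the words was not tested. TGANTCA occurred in 7 of 10 Sprr2 promoters, 2 of 2 Sprr1, 4 of 5 filaggrin-like, Ivl and Lor, and in 0 of 12 Lce1 and 0 of 6 Lce3 promoters, against 6.7% of all 32851 promoters. Its middle base was G or C, as in the usual AP-1 site, in the matches of Sprr2, Sprr1a, Ivl and Lor. In Sprr1b and the filaggrin-like genes the middle base was A or T. TATAAA occurred in 7 of 10 Sprr2, 1 of 12 Lce1 and 1 of 6 Lce3 promoters, against 12.4% of all. ATTTGCAT occurred in 7 of 10 Sprr2 promoters and in no other member, against 1.6% of all. ATAAAAG occurred in 9 of 12 Lce1 and 5 of 6 Lce3 promoters and in 0 of 10 Sprr2 promoters, against 4.8% of all. It overlapped TATAAA in Lce1m and Crnn. ATAAAAG began 28 or 29 bases before the start in those Lce1 promoters and 28 to 30 bases in those of Lce3. That is close to the place of TATAAA in Sprr2, which began at 29. Lce3f had a further ATAAAAG at 207, and the TATAAA match of Lce3e lay far from the start, at 243 to 238.

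By exact letters, the words near the starts differed between the Sprr2 and Lce3 genes, while most Lce3 and Lce1 genes held the same one. Whether ATAAAAG serves as a TATA box in the Lce genes was not tested. The antioxidant response core TGACNNNGC occurred in 3 of 6 Lce3 and 1 of 10 Sprr2 promoters, against 10.2% of all, and the C/EBP core TTGCNNAA in 1 of 6 and 1 of 10, against 9.6%. The octamer and ATAAAAG were picked after the sequences had been read. Copies of a family descend from shared ancestors, so their promoters are not independent, and a match is a description of letters, not of binding.

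The genes that build and control the envelope were counted from lists. Of 19 tested enzymes and scaffold proteins, 0 passed an edgeR adjusted p of 0.05, while an unadjusted p under 0.05 was reached by 2 that were higher and 6 that were lower in Itch KO skin, and Csta2 had no match. The background was 12% of all tested genes higher, which the 2 of 19 come close to, and 10.9% lower. The smallest p was that of Tgm5, an epidermal transglutaminase, with 57.5 and 55.1 CPM in Itch KO skin, against 116 and 101 CPM in WT skin (log2 fold change -0.95, edgeR adjusted p = 0.084). Csta1, a cystatin of the mouse epidermis, had 197 and 198 CPM in Itch KO skin, against 128 and 125 CPM in WT skin (log2 fold change 0.64). The list's median log2 fold change was -0.29.

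The list of envelope gene regulators held 25 tested genes. It also held antioxidant genes that are not regulators: Hmox1, Nqo1, Gclc, Gclm, Txnrd1, Slc7a11 and Srxn1. Of the 25, 0 passed an edgeR adjusted p of 0.05, and the median was 0.04. An unadjusted p under 0.05 was reached by 8 that were higher and 6 that were lower, against 12% and 10.9% of all tested genes. Hmox1 and Slc7a11 were among the 8 higher. Gclm and Srxn1 also had both Itch KO libraries above both WT libraries, Nqo1 and Txnrd1 had both below, and Gclc overlapped. In the whole list, the genes with the smallest p were Junb and Nfe2l2, both higher. Junb, a subunit of AP-1, had 514 and 428 CPM in Itch KO skin, against 127 and 175 CPM in WT skin (log2 fold change 1.64, edgeR adjusted p = 0.0755). Nfe2l2, which encodes the regulator NRF2, had 188 and 156 CPM in Itch KO skin, against 79.5 and 91.7 CPM in WT skin (log2 fold change 1.01, edgeR adjusted p = 0.0925). Among the 6 lower ones was Grhl1, a grainyhead-type transcription factor named after its values were seen, with 246 and 254 CPM in Itch KO skin, against 426 and 438 CPM in WT skin (log2 fold change -0.79, edgeR adjusted p = 0.101).

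Keratinocyte markers differed between the groups as well. The stress keratins Krt6a, Krt6b, Krt16 and Krt17, known from wounded and hyperproliferating epidermis, summed to 6147 and 7450 CPM in Itch KO skin, against 802.3 CPM in WT 1 and 2283 CPM in WT 2. All 4 had both Itch KO libraries above both WT libraries, against 31.2% of all tested genes. Krt6b alone had 1470 and 1710 CPM in Itch KO skin, against 6.60 and 72.5 CPM in WT skin. Suprabasal markers summed to 9155 and 10730 CPM in Itch KO skin, against 12820 and 14200 CPM in WT skin. Both Itch KO libraries lay below both WT libraries in 4 of 7 of these genes, against 30% of all tested genes. Basal markers summed to 7567 and 8152 CPM in Itch KO skin and to 9294 and 7556 CPM in WT skin. Single basal genes went both ways: of 6, Krt14 lay above (log2 fold change 0.88) and 3 lay below, among them Krt15 (-1.56). The part of these compartments in the family differences was not tested.

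The Sprr2 and Lce3 medians lay above the Lce1 median under each way of fitting, with all fits drawn from the same 4 libraries. Of the tested genes, 7 of 11 Sprr2 and 5 of 6 Lce3 genes entered through their Itch KO counts, and 0 of 13 Lce1 genes did. Medians above 0 in Sprr2 and Lce3 were thus close to a condition of testing, and the fits add no independent support. The plot of medians by setting shows Sprr2 and Lce3 above 0 as reported and under the 13 other fits, the Sprr2 median between 4.15 and 6.94 and the Lce3 median between 2.12 and 7.19. The Lce1 median stayed between -0.59 and 0.13. The filaggrin-like median ranged from -0.47 without WT 1 to 3.87 without WT 2.

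**Figure D4:**
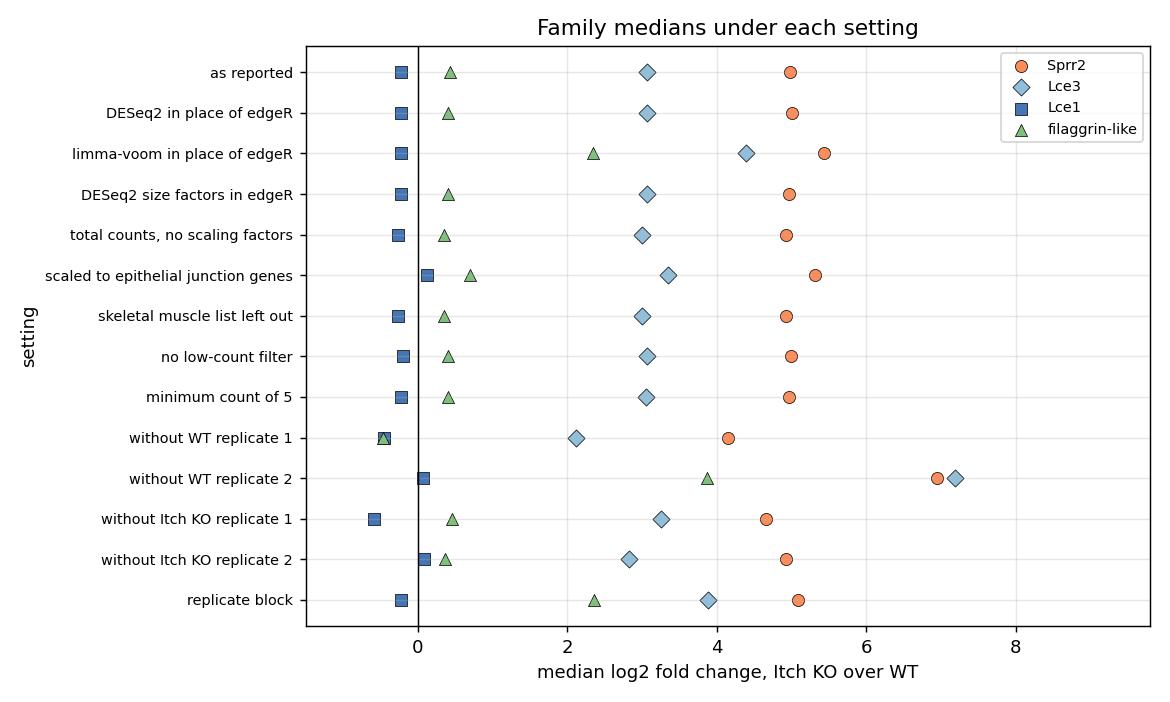
Median log2 fold change (Itch KO over WT) of the tested Sprr2, Lce3, Lce1 and filaggrin-like genes under each fit, with 1 line of points for each setting. Sprr2 and Lce3 lie to the right of 0 throughout, Lce1 stays close to 0, and the filaggrin-like median moves with the WT library left out. Most tested Sprr2 and Lce3 genes entered the test through their Itch KO counts.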

How the data were processed

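RNA of 2 Itch KO and 2 WT skin libraries was sequenced, and the authors deposited whole-number read counts per Ensembl gene, not normalized, in 1 file for each library. The tools, per the submitters' processing notes, were HTSeq 0.6.1, SAMtools 0.1.19, TopHat2 and CASAVA 1.8.2, with the build mm10 (GRCm38). No source used here gives the annotation, the strand setting or the treatment of multiply aligned reads. The 5 counter lines of each file stayed out of library sizes. Reads without a feature were 6.79% and 5.685% in Itch KO and 7.45% and 6.796% in WT, and ambiguous reads 4.502% and 4.702% in Itch KO and 4.614% and 4.477% in WT.

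Tests used edgeR 4.0.16 in R 4.3.3 (filterByExpr with a minimum count of 10, TMM scaling, quasi-likelihood F test with legacy=TRUE and robust=TRUE, two-sided, Benjamini-Hochberg adjustment over 16651 genes, threshold 0.05). CPM is relative to TMM-scaled library sizes. The SE of a fold change is its size divided by the square root of F. The biological coefficient of variation was 0.341. DESeq2 1.42.0, limma-voom (limma 3.58.1), other scalings, other filters, a replicate block, copies summed and each library left out were tried. The procedure was tested on simulated counts. No library repeats another: chi-square over its degrees of freedom, from the counts of the 2 libraries of a group, was 18.4 in Itch KO and 84.4 in WT.

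Symbols, coordinates and transcripts came from GENCODE vM21 and promoters from RefSeq. A 50-base or 100-base word counted as shared if it occurred in a transcript of any other gene. Values in every library were given for Lor, Ivl, the filaggrin-like genes, the members with the highest mean CPM of each subfamily (up to 4 of Sprr2 and Lce1 and up to 3 of the others), and the 2 Sprr and 2 Lce genes with the smallest p. Other members that are named were named to account for all members. The members and the gene lists were chosen with earlier results of these data known, so no list was tested as a set.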

Additional observations from a re-analysis of the deposited data

How the results depend on the processing

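Of the 25 members given with full values, 19 kept the sign of their fold change under all 13 other fits and 6 did not. Over all genes, 1 gene passed an adjusted p of 0.05, and the count was 2329 with DESeq2, 0 with limma-voom, 396 with scaling to epithelial junction genes, 488 without the low-count filter, 7 with a minimum count of 5, 0 with the replicate block and between 0 and 5320 with 1 library left out. Of the members, 0 passed, against 16 with DESeq2, 1 with scaling to epithelial junction genes and 3 without the low-count filter. With 1 library left out, the spread of a group rests on the other group. No count of all members passing is therefore given for these fits, and the Lce3 and Sprr2 counts given above are not read as results. With 1 library left out, members higher at an unadjusted p under 0.05 numbered 9 to 28 and members lower 1 to 7, members with all Itch KO above all WT 19 to 30 and members with all below 9 to 18. These leave-one-out ranges cannot be read as results about the members. Counts over all genes at that p moved as well, and fewer libraries separate completely more often by arrangement alone. No share of all genes is given for complete separation in these fits. With scaling to epithelial junction genes, 2 members were lower at an unadjusted p under 0.05 and 4 had all Itch KO below all WT. Leaving out 1 library gave medians of 3.58 to 6.85 for Sprr, 4.15 to 6.94 for Sprr2, 2.12 to 7.19 for Lce3 and -0.47 to 3.87 for the filaggrin-like genes, the last of which was 2.35 with limma-voom and 2.36 with the replicate block. Single genes that changed sign with 1 library left out were Sprr1a (-0.07 to 2.86), Sprr4 (-2.03 to 1.74), Lce6a (-1.04 to 0.04), Crnn (-0.36 to 8.25), Tchhl1 (-0.57 to 7.16) and Hrnr (-0.47 to 0.73). Hrnr, at 0.01, was also 0.00 with DESeq2, 0.00 with DESeq2 size factors, -0.04 with total counts, -0.05 without the skeletal muscle list and -0.01 with a minimum count of 5. The cause of these shifts was not tested. The replicate numbers do not establish pairs: deviations of same-numbered libraries correlated at 0.186 over 2 pairs. Genes at a few reads in WT 1, where 3 reads are 0.200 CPM, could not be told from 0 there at this depth.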
